A study of Homo sapiens with 18 samples.

Results

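DNA repair and checkpoint genes were followed in 2 cell lines of Group 3 medulloblastoma, a tumour of the cerebellum, after EYA2 was targeted with short hairpin RNAs. The set held 47 genes of damage sensing, homologous recombination, end joining, the Fanconi pathway, mismatch repair and excision repair, taken by name from the 25369 gene rows of the count table. All 47 passed the filter on low counts and were among the 14850 genes tested, and the lowest count of any of them in any library was 91. The groups were D458 with EYA2 hairpin 7, D458 with EYA2 hairpin 8, D458 with a non-targeting control hairpin, D425 with EYA2 hairpin 6, D425 with EYA2 hairpin 8 and D425 with the same kind of control, each with 3 biological replicates. Every group, controls included, carried an shRNA construct with a zsGreen reporter, spent 48 h in 1 µg/mL puromycin, was sorted for the brightest 10% and was given 24 h to recover before lysis. Polyadenylated RNA was sequenced in strand-specific libraries, so histone messages without a poly(A) tail are not read. Hairpin 8 was the only EYA2 hairpin used in both lines.

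Cells repair double-strand breaks either by homologous recombination, which copies an intact sister sequence, or by end joining, which ligates the ends directly. ATM and ATR kinases signal the damage through CHEK2 and CHEK1, and ATM-family kinases mark the chromatin around a break by phosphorylating H2AX, the histone that H2AFX encodes. EYA phosphatases remove a different phosphate, from a tyrosine near the end of H2AX, which the kinase BAZ1B adds, and loss of EYA activity has been linked to less efficient repair in other cells. The data here are RNA levels and carry no measurement of H2AX phosphorylation.

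Library totals ran from 21260369 to 31552051 counts. EYA2 RNA averaged 48.1 ± 3.43 CPM with hairpin 7 and 20.3 ± 2.77 CPM with hairpin 8, against 70.3 ± 3.16 CPM in control D458 cells (mean and SD, n = 3 libraries each). It passed the test with hairpin 8 (log2 change -1.79 ± 0.27, adjusted p = 0.000506) and not with hairpin 7 (log2 change -0.55 ± 0.26, adjusted p = 0.137; 0.00692 with a term for the replicate number). In D425 it averaged 11.85 ± 2.87 CPM with hairpin 6 and 14.1 ± 3.01 CPM with hairpin 8, against 27.9 ± 14.3 CPM in control cells, and fell with both (adjusted p = 0.00693 and 0.017). The D425 controls were spread widely, at 43.63, 24.61 and 15.53 CPM in replicates 1, 2 and 3. Hairpin 8 replicate 1, at 17.53 CPM, lay above control replicate 3, so these groups overlapped. All hairpin 6 libraries lay below the controls, but the nearest pair stood at 15.12 against 15.53 CPM. The hairpin 8 call in D425 was lost without D425 hairpin 8 replicate 2 or 3 or control replicate 1 (adjusted p up to 0.0865). All values are TMM-scaled CPM, the counts divided by the effective library size, log2 changes are hairpin over control with standard errors, and a gene was called where its Benjamini-Hochberg adjusted p from edgeR's quasi-likelihood test over all 14850 genes was under 0.05. CPM is not divided by gene length, so levels are set side by side between libraries and not between genes.

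The cell identity was read from markers. The 10 genes of the Group 3 and photoreceptor list summed to 5274 to 6469 CPM in D458 hairpin libraries and 6296 to 6817 CPM in D458 controls, and to 4409 to 5339 CPM in D425 hairpin libraries and 5574 to 6421 CPM in D425 controls. MYC (4048 CPM) and OTX2 (2055 CPM) were the highest of these 10 in D458 controls. Of the 10, 7 averaged at least 1 CPM in D458 groups and 8 in D425 groups. Also read was an SHH and WNT medulloblastoma list of 9 genes, led in D458 by TNC and PDLIM3. It summed to 138.5 to 385.6 CPM in D458 hairpin libraries and 92.7 to 449.9 CPM in D458 controls. In D425 it summed to 44.6 to 61.3 CPM with hairpins and 25.75 to 43.2 CPM in controls. Leukocyte, endothelial and glial lists stayed under 6.13 CPM in every library. The 8 fibroblast and mesenchymal genes summed to 32.2 to 61.0 CPM in D458 hairpin libraries against 6.89 to 8.44 CPM in D458 controls, with POSTN at 0 in all 9 D458 libraries, and to 43.1 to 96.4 CPM in D425 hairpin libraries against 18.5 to 33.2 CPM in D425 controls. The part of these genes in the results was not tested. In bulk RNA, fewer cells that express a gene and less RNA per cell cannot be told apart.

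Promoters of the genes are shown first, because many repair genes are known to be transcribed in S phase through E2F and CCAAT elements. RefSeq sequences of the assembly GRCh38.p14 were read from 250 bases before to 50 bases after the first listed start, 300 bases in the direction of transcription, for 42 of the 47 genes, leaving out FANCI, NBN, PRKDC, WRN and XRCC5. Capitals mark matches, on either strand, to an E2F octamer (TTTCCCGC, TTTGGCGC, TTTCGCGC or TTTGCCGC), to CCAAT or to the CHR element TTTGAA. None of the 3 motifs contains another. CHEK2 is shown as the gene with the largest fall, LIG4 as the one with the largest rise, H2AFX as the histone that EYA phosphatases act on, and EXO1 as a gene with an E2F match.
CHEK2 (chr22:28741771-28742070, minus strand): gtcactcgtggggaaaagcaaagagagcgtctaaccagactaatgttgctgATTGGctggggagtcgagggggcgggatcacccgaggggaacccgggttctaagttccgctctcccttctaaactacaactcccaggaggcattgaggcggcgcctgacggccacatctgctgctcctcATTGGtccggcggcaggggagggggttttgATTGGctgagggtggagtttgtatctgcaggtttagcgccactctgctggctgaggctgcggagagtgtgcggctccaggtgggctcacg
LIG4 (chr13:108218300-108218599, minus strand): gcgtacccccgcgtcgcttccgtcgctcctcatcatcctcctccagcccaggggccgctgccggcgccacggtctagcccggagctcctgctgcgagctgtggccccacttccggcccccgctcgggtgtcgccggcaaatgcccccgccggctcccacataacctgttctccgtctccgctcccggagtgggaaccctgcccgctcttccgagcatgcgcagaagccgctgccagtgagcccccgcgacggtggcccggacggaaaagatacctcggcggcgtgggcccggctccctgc
H2AFX (chr11:119095416-119095715, minus strand): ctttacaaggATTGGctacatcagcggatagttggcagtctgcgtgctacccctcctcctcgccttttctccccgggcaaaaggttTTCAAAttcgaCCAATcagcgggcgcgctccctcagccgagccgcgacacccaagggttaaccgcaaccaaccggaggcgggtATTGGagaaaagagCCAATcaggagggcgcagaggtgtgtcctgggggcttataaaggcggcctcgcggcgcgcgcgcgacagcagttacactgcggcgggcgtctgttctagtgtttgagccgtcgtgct
EXO1 (chr1:241847954-241848253, plus strand): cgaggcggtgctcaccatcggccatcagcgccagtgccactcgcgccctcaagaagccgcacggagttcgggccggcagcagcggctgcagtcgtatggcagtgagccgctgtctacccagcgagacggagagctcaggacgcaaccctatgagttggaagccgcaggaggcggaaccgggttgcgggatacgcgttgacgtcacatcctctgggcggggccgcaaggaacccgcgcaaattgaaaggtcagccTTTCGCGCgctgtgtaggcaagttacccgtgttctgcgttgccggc
CHEK2 held 3 CCAAT matches, all on the opposite strand, and H2AFX held 4 CCAAT matches and 1 CHR match. EXO1 held 1 E2F match, and only 1 of its 2 listed starts had a match to some motif. LIG4 held no match in this window, although 2 of its 5 listed starts had a match to some motif. RAD51D, BRCA1 and RBBP8, which fell in D458, held no match in their windows either. An E2F match lay in 7 of 42 promoters of the set (16.7%) and in 5.31% of the 11425 promoters of tested genes, and CCAAT lay in 54.8% and 36.8%. Among the 21 promoters of genes that fell in D458 the shares were 19% for E2F and 66.7% for CCAAT, and among the 18 of genes not called there they were 16.7% and 44.4%. CHR lay in 14.3% of the set and 9.78% of tested genes, in 9.52% of the promoters of genes that fell in D458 and in 16.7% of those of genes not called there. These matches are letters in a window and say nothing of which factors bind.

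In D458 the set was mostly lower after EYA2 targeting. With both hairpins averaged, 24 genes fell and 3 rose, while 20 did not pass, where 16% of all tested genes were called lower and 15.7% higher. The median log2 change over the 47 genes was -0.35, beside 0.01 over all genes, and 43 of the 47 lay below 0. With hairpin 7 alone 16 fell and 3 rose, where 11.1% of all genes were called lower and 11.5% higher, and with hairpin 8 alone 18 fell and 2 rose, where 11.1% and 12.1% were called. Both hairpins are set against the same 3 control libraries. In 28 genes all 6 hairpin libraries lay below all 3 controls (59.6% of the set, beside 16.7% of all genes), and in LIG4, XRCC1 and ERCC1 all 6 lay above (6.38%, beside 16.1%).

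Fewer genes of the set were called in D425. With both hairpins averaged, H2AFX, ATR, RNF168, XRCC3, POLQ and APEX1 fell and none rose, where 11.5% of all tested genes were called lower and 12.1% higher, so the 12.8% of the set called lower was near the background. The median log2 change was -0.10, beside 0.01 over all genes, and 31 of 47 genes lay below 0. With hairpin 6 alone 2 fell and 1 rose (6.84% and 7.31% of all genes), and with hairpin 8 alone 4 fell and 1 rose (10.1% and 11.6% of all genes). All 6 hairpin libraries lay below all controls in 10 genes (21.3%, beside 12.1% of all genes) and above them in RBBP8 alone (2.13%, beside 12.9%).

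A term for the replicate number raised these counts. Libraries with the same number carry a shared run label. In D458 it gave 33 lower and 3 higher for the average, where 23.8% and 22.8% of all genes were called, 28 lower and 3 higher with hairpin 7 (20% and 20% of all genes) and 32 lower and 3 higher with hairpin 8 (19.7% and 19.9% of all genes). In D425 it gave 10 lower and 1 higher for the average, where 18.5% and 20% of all genes were called, 8 lower and 1 higher with hairpin 6 (13.3% and 14.5% of all genes), and 11 lower and 3 higher with hairpin 8 (17.7% and 19.5% of all genes). Without 1 library the D458 average fell to 17 genes (control replicate 1) or 15 (control replicate 3), hairpin 7 to 9 (hairpin 7 replicate 1), 11 (hairpin 7 replicate 3) or 10, 11 and 10 (control replicates 1, 2 and 3), and hairpin 8 to 8 (hairpin 8 replicate 1) or 11, 12 and 10 (control replicates 1, 2 and 3). The D425 average fell to 3 (without hairpin 6 replicate 3, hairpin 8 replicate 3 or control replicate 2) or 2 (control replicate 3), hairpin 6 to 1 (hairpin 6 replicate 1, 2 or 3, or control replicate 2) or 0 (control replicate 3), and hairpin 8 to 2 (hairpin 8 replicate 1) or 3 (control replicate 2 or 3). The share of all genes called also fell, from 31.8% to between 19% and 31.2% for the D458 average. With hairpins 7 and 8 in D458 it went from 22.6% and 23.2% to as low as 8.49% and 9.65%. In D425 it went from 23.6% to as low as 11.5% (average), from 14.1% to 6.11% (hairpin 6) and from 21.7% to 10.5% (hairpin 8). The D458 average reached 29 genes without hairpin 8 replicate 2.

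**Figure D1:**
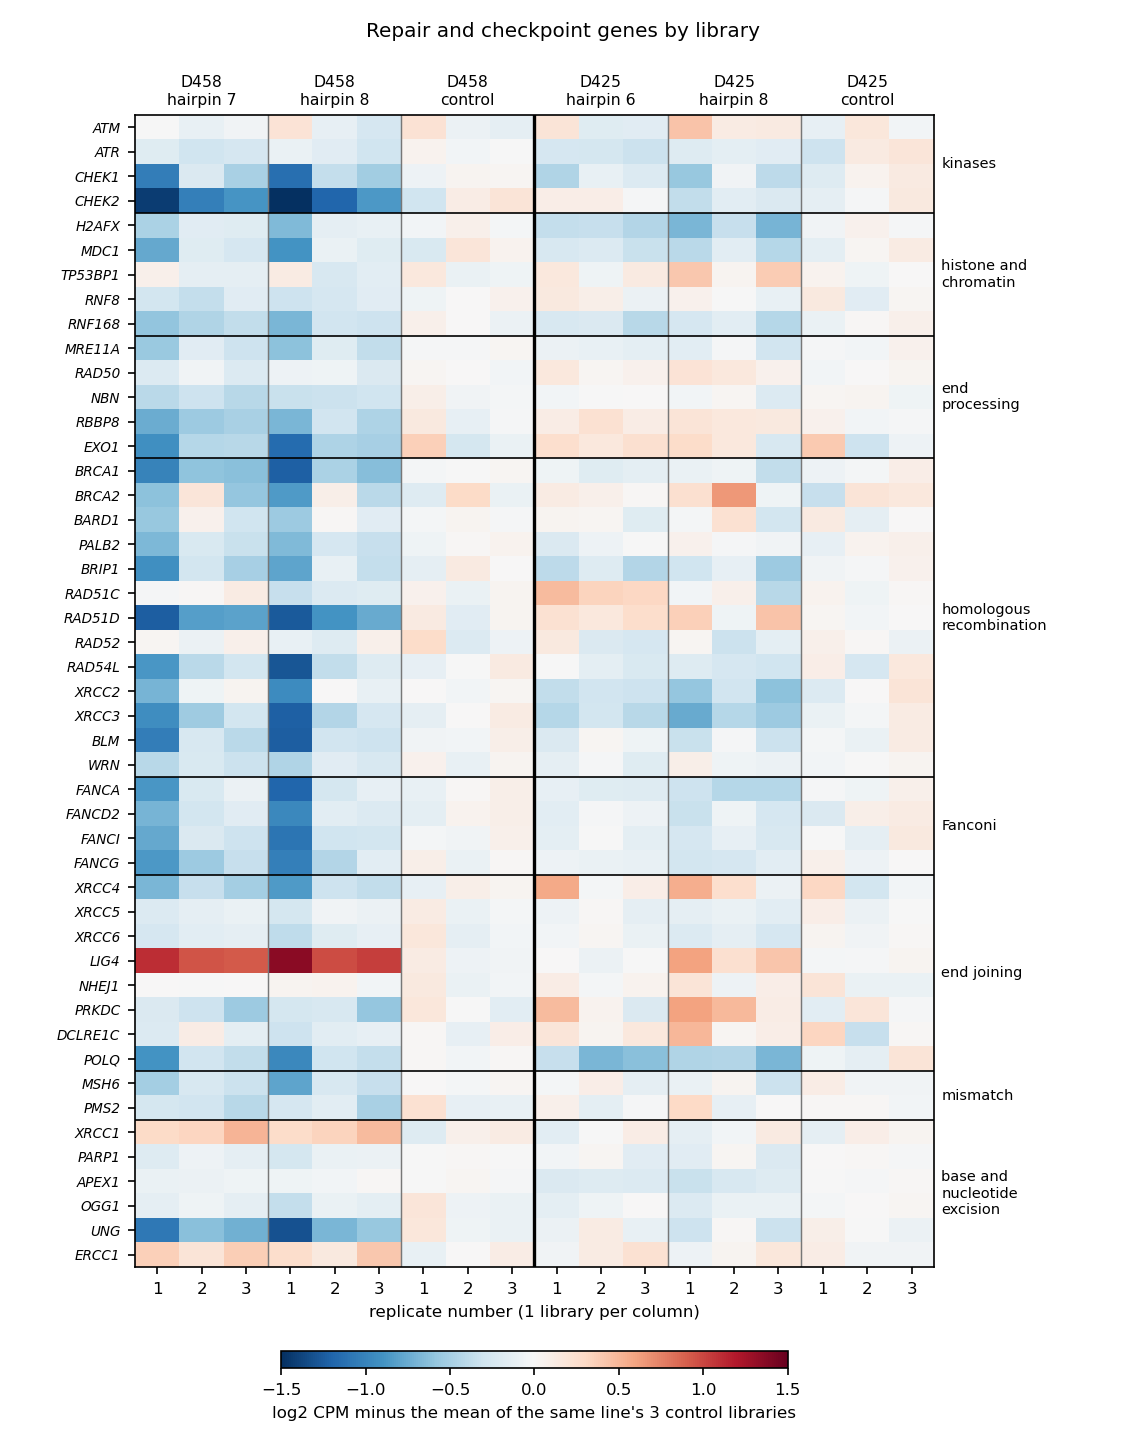
Level of each of the 47 genes (rows, grouped by role) in each of the 18 libraries (columns, replicates 1 to 3 per group), as log2 CPM minus the mean of the 3 control libraries of the same line, with blue below and red above that mean. The D458 hairpin columns are mostly blue except for LIG4, XRCC1 and ERCC1, and replicate 1 of both D458 hairpins is the darkest, with medians of -0.55 and -0.66 over the 47 genes.

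The kinases of damage signalling differed in how far they moved. CHEK2, the effector kinase of the ATM branch, fell further than any other gene of the set in D458. Its level there was 27.4, 36.2 and 39.8 CPM with hairpin 7 and 23.2, 32.3 and 40.3 CPM with hairpin 8, against 59.6, 79.4 and 83.65 CPM in control cells, here and below in the order of replicates 1, 2 and 3. Every D458 hairpin library lay below every control, and replicate 1 was the lowest library of each group. The log2 change was -1.16 ± 0.15 (adjusted p = 5.62e-05) for the average, -1.11 with hairpin 7 (adjusted p = 0.000696) and -1.22 with hairpin 8 (adjusted p = 0.000339), and each of these stayed past the threshold without any 1 library. CHEK2 in D425 stood at 34.1, 34.3 and 31.6 CPM with hairpin 6 and 24.7, 28.6 and 27.4 CPM with hairpin 8, against 29.1, 31.4 and 35.4 CPM in control cells. The D425 groups overlapped, and the averaged change was -0.10 ± 0.15 (adjusted p = 0.691). CHEK1, the effector of ATR, fell in D458 by a log2 change of -0.59 ± 0.17 (adjusted p = 0.0165), a call lost without D458 control replicate 2 or 3 (adjusted p up to 0.0648). In D425 CHEK1 changed by -0.29 ± 0.17 on the log2 scale (adjusted p = 0.234; 0.0196 with the replicate term). ATR, which responds to single-stranded DNA at stalled forks, had log2 changes of -0.22 ± 0.08 in D458 (adjusted p = 0.0608; 0.0255 with the replicate term) and -0.24 ± 0.08 in D425 (adjusted p = 0.0475). The D425 call was lost without any of the 9 libraries of the line except control replicate 1 (adjusted p up to 0.318). ATM, the kinase recruited to double-strand breaks, had log2 changes of -0.06 ± 0.12 in D458 and 0.09 ± 0.12 in D425 and passed in neither. CHEK2 has near-identical copies elsewhere in the genome, so its count is uncertain to the extent that reads were shared.

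H2AFX was lower with the hairpins in both lines by a small factor. Its RNA in D458 stood at 129.7, 159.6 and 159 CPM with hairpin 7 and 113, 163 and 166 CPM with hairpin 8, against 174, 189.8 and 175 CPM in control cells. All 6 hairpin libraries lay below the 3 controls, with the replicate 1 library the lowest of each hairpin group. The averaged log2 change in D458, -0.28 ± 0.11, missed the threshold (adjusted p = 0.0649) and passed with the replicate term (0.00456). H2AFX in D425 stood at 187, 189 and 176 CPM with hairpin 6 and 148, 188 and 147 CPM with hairpin 8, against 231, 251 and 236 CPM in control cells. All hairpin libraries lay below all controls here too, and the nearest pair stood at 189 CPM with hairpin 6 against 231 CPM in a control. H2AFX fell in D425 on average, -0.48 ± 0.11 (adjusted p = 0.00476), and with hairpin 8, -0.57 ± 0.13 (adjusted p = 0.00506), and both calls held without any 1 library. With hairpin 6 the log2 change of -0.38 ± 0.13 missed the threshold (adjusted p = 0.0571; 0.00346 with the replicate term). H2AFX RNA that lacks a poly(A) tail was not captured, so these values cover its polyadenylated form.

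The proteins that read and spread the H2AX mark are MDC1, the ubiquitin ligases RNF8 and RNF168, and TP53BP1. RNF168 had 60.8, 66.8 and 71 CPM with hairpin 7 and 56.9, 74.95 and 74.1 CPM with hairpin 8, against 96.9, 92.2 and 86.4 CPM in control cells in D458. In D425 RNF168 had 51.4, 52.35 and 45.7 CPM with hairpin 6 and 51.2, 54.45 and 45.4 CPM with hairpin 8, against 56.9, 61.7 and 64.4 CPM in control cells. The hairpin and control libraries did not overlap in either line. RNF168 fell in D458, -0.45 ± 0.09 (adjusted p = 0.00204), without any omission that lost the call, and in D425, -0.28 ± 0.09 (adjusted p = 0.0318), where the call was lost without hairpin 6 replicate 3, hairpin 8 replicate 3 or control replicate 2 or 3 (adjusted p up to 0.161). MDC1, which binds phosphorylated H2AX, had log2 changes of -0.38 ± 0.15 in D458 (adjusted p = 0.0725; 0.000399 with the replicate term) and -0.30 ± 0.15 in D425 (adjusted p = 0.176; 0.00374 with it). RNF8 fell in D458 by a log2 change of -0.25 ± 0.08 (adjusted p = 0.0195), lost without D458 hairpin 7 replicate 1 or 2, hairpin 8 replicate 1 or control replicate 2 or 3 (adjusted p up to 0.13), and had 0.01 ± 0.08 in D425. TP53BP1, which favours end joining, had -0.08 ± 0.10 in D458 and 0.18 ± 0.10 in D425 and passed in neither, although with the replicate term it was called higher in D425 (adjusted p = 0.0186). It shares 28.9% of its exon bases with TUBGCP4 on the opposite strand, so its count is uncertain.

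Genes whose products bind or process a broken end fell in D458 in 4 of 5 cases, and none of the 5 passed in D425. Of all genes, 16% in D458 and 11.5% in D425 were called lower. RBBP8, the CtIP protein that starts resection, stood in D458 at 28.4, 32.7 and 33.95 CPM with hairpin 7 and 29.7, 38.95 and 34.6 CPM with hairpin 8, against 52.7, 43.6 and 47.2 CPM in control cells. RBBP8 in D425 stood at 66, 71.1 and 66 CPM with hairpin 6 and 69.6, 67.8 and 67.7 CPM with hairpin 8, against 63.6, 59 and 60.3 CPM in control cells. All hairpin libraries lay below the controls in D458 and above them in D425. The log2 change was -0.54 ± 0.08 (adjusted p = 0.000324) in D458, held without any 1 library, and 0.16 ± 0.08 (adjusted p = 0.187) in D425. Its chromosome, 18, had the lowest median of all chromosomes in D458, -0.17 on the log2 scale. NBN, RAD50 and MRE11A form the complex that first binds the ends. NBN in D458 had 33.7, 35.85 and 33.5 CPM with hairpin 7 and 35.3, 35.6 and 36.4 CPM with hairpin 8, against 47.4, 42.9 and 43.7 CPM in control cells, and in D425 it had 61.25, 62.9 and 63 CPM with hairpin 6 and 61.2, 64.1 and 54.4 CPM with hairpin 8, against 64.4, 64.55 and 60.05 CPM in control cells. The D458 libraries did not overlap with their controls and the D425 libraries did. NBN fell in D458, -0.35 ± 0.06 (adjusted p = 0.000874), a call held without any 1 library, and in D425 had -0.04 ± 0.06 (adjusted p = 0.663). RAD50 in D458 had 126, 140.1 and 126 CPM with hairpin 7 and 137, 138.5 and 125 CPM with hairpin 8, against 149, 146 and 142 CPM in control cells. Its D425 values were 110.4, 101 and 104 CPM with hairpin 6 and 114, 110.3 and 104 CPM with hairpin 8, against 96.25, 99.4 and 102 CPM in control cells. The 6 hairpin libraries lay below the controls in D458 by a narrow margin and overlapped with them in D425. The log2 changes of RAD50 were -0.14 ± 0.06 in D458 (adjusted p = 0.0825; 0.0413 with the replicate term) and 0.11 ± 0.06 in D425 (adjusted p = 0.184). MRE11A, the nuclease of the complex, fell in D458, -0.36 ± 0.09 on the log2 scale (adjusted p = 0.00857) and had -0.14 ± 0.09 in D425. EXO1, the exonuclease that extends resection, fell in D458, -0.65 ± 0.18 (adjusted p = 0.0142), a call lost without D458 control replicate 1 (adjusted p = 0.12), and had 0.12 ± 0.19 in D425.

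Homologous recombination held 13 genes, of which 8 fell in D458 (16% of all genes) and 1, XRCC3, fell in D425 (11.5% of all genes). BRCA1, the ubiquitin ligase that promotes recombination, had 48.3, 63.3 and 62.6 CPM with hairpin 7 and 41.2, 69.3 and 61.9 CPM with hairpin 8, against 95, 96.4 and 98.4 CPM in control cells in D458. BRCA1 in D425 had 121, 111 and 114 CPM with hairpin 6 and 118, 121 and 98.2 CPM with hairpin 8, against 119.7, 124 and 135.5 CPM in control cells. All D458 hairpin libraries lay below the closely grouped controls, with replicate 1 lowest, and the D425 groups overlapped. The log2 change was -0.74 ± 0.12 (adjusted p = 0.00053) in D458, held without any 1 library, and -0.15 ± 0.12 (adjusted p = 0.408) in D425. RAD51D, which acts in recombination repair, had 3.74, 4.98 and 5.06 CPM with hairpin 7 and 3.685, 4.74 and 5.23 CPM with hairpin 8, against 9.68, 7.87 and 9.095 CPM in control cells in D458. The D458 hairpin libraries all lay below the controls, with replicate 1 lowest of each hairpin group. RAD51D in D425 had 9.54, 9.09 and 9.79 CPM with hairpin 6 and 10.5, 7.76 and 10.9 CPM with hairpin 8, against 8.34, 7.905 and 8.19 CPM in control cells. Hairpin 6 lay above all D425 controls and hairpin 8 replicate 2 below them. RAD51D fell in D458, -0.96 ± 0.14 (adjusted p = 0.000222), by near-equal amounts with hairpin 7 (-0.95) and hairpin 8 (-0.97), and had 0.24 ± 0.14 (adjusted p = 0.249) in D425. It shares 4.2% of its exon bases with the readthrough gene RAD51L3-RFFL on the same strand.

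PALB2, which links BRCA1 to BRCA2, had 24.3, 33.2 and 30.6 CPM with hairpin 7 and 24.5, 32.4 and 30.5 CPM with hairpin 8, against 36.95, 39.2 and 40.1 CPM in control cells in D458 and 21.9, 24 and 25.3 CPM with hairpin 6 and 26.6, 25 and 24.3 CPM with hairpin 8, against 23.2, 26.3 and 26.7 CPM in control cells in D425. The D458 groups did not overlap and the D425 groups did. The log2 change of PALB2 was -0.41 ± 0.10 (adjusted p = 0.00718) in D458, held without any 1 library, and -0.05 ± 0.10 (adjusted p = 0.764) in D425. Of the other recombination genes, BRIP1, a helicase bound to BRCA1, fell in D458, -0.47 ± 0.14 (adjusted p = 0.0194; lost without control replicate 2 or 3, up to 0.111) and had -0.33 ± 0.14 in D425 (adjusted p = 0.106; 0.00462 with the replicate term). RAD54L, a DNA translocase, and the RecQ helicase BLM fell in D458, with log2 changes of -0.52 ± 0.18 and -0.54 ± 0.18 (adjusted p = 0.0336 and 0.0305), and both calls were lost without hairpin 7 replicate 1 or any of the 3 controls (up to 0.144 and 0.115). RAD54L shares 18% of its exon bases with LRRC41 on the opposite strand, so its count is uncertain. The RecQ helicase WRN fell, -0.30 ± 0.08 (adjusted p = 0.00977; lost without control replicate 1 or 3, up to 0.0614). XRCC3, which acts in recombination repair, fell in both lines, with log2 changes of -0.57 ± 0.16 in D458 (adjusted p = 0.015; lost without control replicate 2 or 3, up to 0.0794) and -0.47 ± 0.16 in D425 (adjusted p = 0.0439; lost without any library of the line except hairpin 8 replicate 2, up to 0.185). Its exons share 45.3% of their bases with KLC1 on the opposite strand, whose log2 changes were 0.10 in D458 and -0.17 in D425. BRCA2, BARD1, RAD51C, RAD52 and XRCC2 passed in neither average, with log2 changes between -0.33 (BRCA2) and -0.05 (RAD52) in D458. The replicate term called BRCA2 lower in D458 (adjusted p = 0.0257) and XRCC2 lower in D425 (adjusted p = 0.0251). RAD51C rose with D425 hairpin 6, 0.37 ± 0.10 (adjusted p = 0.0258), lost without hairpin 6 replicate 1 or 2 or control replicate 2 or 3 (up to 0.111), and had -0.11 with hairpin 8.

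Of the 4 Fanconi genes, whose products repair crosslinks between strands, FANCG and FANCI fell in D458, where 16% of all genes were called lower. FANCG, a subunit of the core ligase complex, had 26.8, 33.6 and 38.5 CPM with hairpin 7 and 24, 35.95 and 43.8 CPM with hairpin 8, against 51.9, 45.55 and 49.5 CPM in control cells in D458. FANCG in D425 had 54.1, 53.2 and 53.1 CPM with hairpin 6 and 47.2, 47.9 and 51.1 CPM with hairpin 8, against 60.2, 54.25 and 57.25 CPM in control cells. The groups did not overlap in either line, but the D425 margin was 54.1 against 54.25 CPM. FANCG fell in D458, -0.54 ± 0.13 (adjusted p = 0.00745), held without any 1 library, and had -0.16 ± 0.13 (adjusted p = 0.406) in D425, where the median of its chromosome, 9, was -0.30. FANCI, which forms the clamp that is ubiquitinated with FANCD2, fell in D458, -0.46 ± 0.14 (adjusted p = 0.0233; lost without hairpin 7 replicate 1 or any control, up to 0.0977). FANCD2 and the core subunit FANCA had -0.39 ± 0.15 and -0.41 ± 0.18 in D458 and passed only with the replicate term (adjusted p = 0.000803 and 0.00261, against 0.058 and 0.0877 without it). FANCA shares 22.4% of its exon bases with ZNF276 and FANCI 8.3% with POLG, both on the opposite strand, and ZNF276 (-0.32) and POLG (-0.24) fell in D458 too (adjusted p = 0.0128 and 0.015), so these counts are uncertain. None of the 4 passed in D425, where their log2 changes ran from -0.28 to -0.16.

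**Figure D2:**
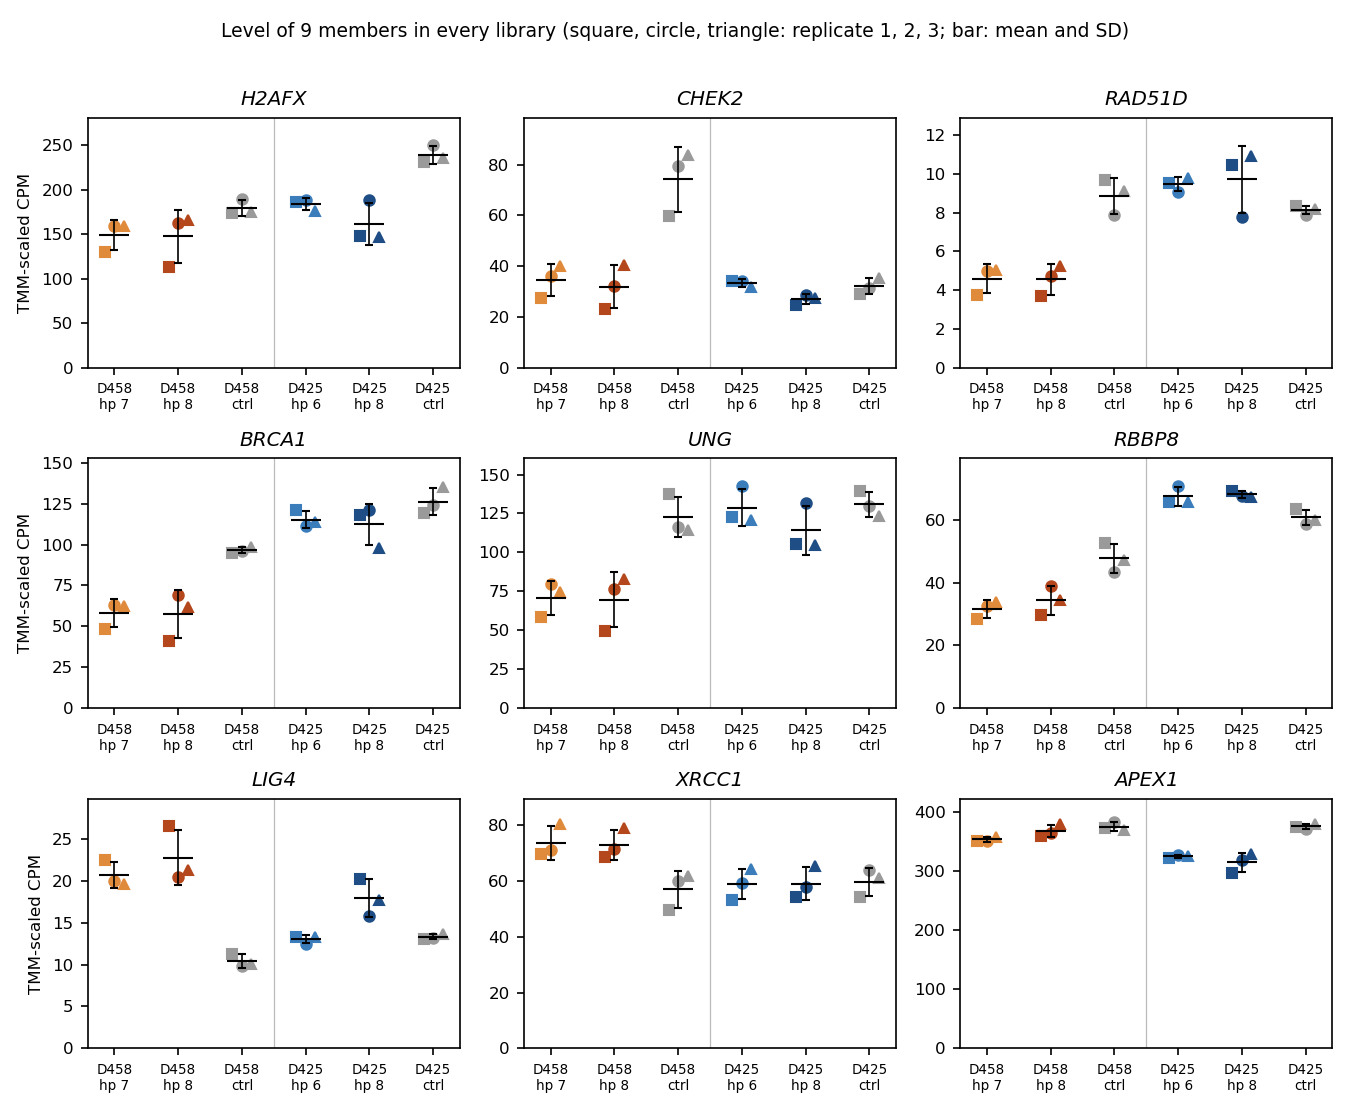
TMM-scaled CPM of 9 of the genes in every library, with squares, circles and triangles for replicates 1, 2 and 3 and bars for the mean and SD of 3 libraries (hp, hairpin; ctrl, control; axes start at 0). In D458 every hairpin library lies below every control for H2AFX, CHEK2, RAD51D, BRCA1, UNG and RBBP8 and above for LIG4 and XRCC1, while in D425 the groups are apart for H2AFX, RBBP8 and APEX1.

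End joining differed from the rest in its leading gene. LIG4, the ligase that seals the ends together with XRCC4, rose more than any other gene of the set. Its level in D458 was 22.45, 19.9 and 19.6 CPM with hairpin 7 and 26.5, 20.5 and 21.3 CPM with hairpin 8, against 11.3, 9.87 and 10.05 CPM in control cells. Hairpin libraries held 2.08-fold the control level on average, with a wide gap between the groups. LIG4 in D425 stood at 13.3, 12.5 and 13.3 CPM with hairpin 6 and 20.3, 15.8 and 17.8 CPM with hairpin 8, against 13.1, 13.2 and 13.65 CPM in control cells. Hairpin 6 overlapped with the D425 controls and hairpin 8 lay above them. LIG4 rose in D458 with hairpin 7, 0.99 ± 0.12 (adjusted p = 9.6e-05), with hairpin 8, 1.13 ± 0.12 (adjusted p = 2.98e-05), and on average, 1.06 ± 0.11 (adjusted p = 1.08e-05), all held without any 1 library. It rose in D425 with hairpin 8, 0.43 ± 0.12 (adjusted p = 0.0159), a call lost without hairpin 8 replicate 1 or control replicate 2 (adjusted p up to 0.0896), while hairpin 6 gave -0.03 ± 0.12 (adjusted p = 0.91).

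Its partner XRCC4 fell in D458, -0.50 ± 0.17 (adjusted p = 0.0372), a call lost without hairpin 7 replicate 1 or 3, hairpin 8 replicate 1 or any control (up to 0.145), and NHEJ1, the third protein of the ligation step, had 0.01 ± 0.09. PRKDC, the catalytic subunit of the DNA-dependent kinase, had 531, 496 and 421 CPM with hairpin 7 and 513, 521 and 412 CPM with hairpin 8, against 691, 612 and 553 CPM in control cells in D458. PRKDC in D425 had 725, 541 and 450.2 CPM with hairpin 6 and 790.4, 732.5 and 562 CPM with hairpin 8, against 467, 589.9 and 515 CPM in control cells. The D458 hairpin libraries all lay below the controls and the D425 groups overlapped widely. The log2 changes were -0.36 ± 0.14 in D458 (adjusted p = 0.0613; 0.0109 with the replicate term) and 0.27 ± 0.14 in D425 (adjusted p = 0.195). XRCC5 and XRCC6 encode the Ku subunits that hold the ends. XRCC5 had 521, 546 and 561 CPM with hairpin 7 and 502, 579 and 566.5 CPM with hairpin 8, against 653.5, 561 and 591 CPM in control cells in D458, and 351, 375 and 337 CPM with hairpin 6 and 336, 345 and 330.5 CPM with hairpin 8, against 396, 347 and 367 CPM in control cells in D425. Its groups overlapped in both lines, with log2 changes of -0.14 ± 0.06 (adjusted p = 0.108) in D458 and -0.10 ± 0.07 (adjusted p = 0.302) in D425. XRCC6 fell in D458, -0.21 ± 0.07 (adjusted p = 0.0299; lost without hairpin 7 replicate 1 or 2, hairpin 8 replicate 1 or control replicate 1 or 3, up to 0.268). DCLRE1C, the Artemis nuclease, passed in neither line (-0.14 in D458 and 0.15 in D425). POLQ, the polymerase of the alternative joining route, fell in both lines, with log2 changes of -0.50 ± 0.14 in D458 (adjusted p = 0.0146; lost without control replicate 1 or 3, up to 0.0591) and -0.54 ± 0.14 in D425 (adjusted p = 0.0112; lost without control replicate 3, 0.0937).

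Both mismatch repair genes fell in D458, where 16% of all genes were called lower, and neither passed in D425. MSH6, which recognises mismatches, fell, -0.40 ± 0.10 (adjusted p = 0.00943) and had -0.07 ± 0.11 in D425. PMS2, a mismatch repair nuclease, fell, -0.32 ± 0.11 (adjusted p = 0.0334), lost without any of the 9 D458 libraries except hairpin 8 replicate 2 (up to 0.275), and had 0.02 ± 0.11 in D425. PMS2 has near-identical copies, and MSH6 shares 21% of its exon bases with FBXO11 on the opposite strand, so both counts are uncertain.

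The excision repair genes went in different directions. UNG, which removes uracil from DNA, had 58.15, 79.5 and 74.4 CPM with hairpin 7 and 49.5, 76.25 and 82.7 CPM with hairpin 8, against 137, 116.5 and 114 CPM in control cells in D458. In D425 UNG had 122.5, 142.5 and 121 CPM with hairpin 6 and 105, 132 and 105 CPM with hairpin 8, against 139, 130 and 123 CPM in control cells. The D458 hairpin libraries lay well below their controls, with replicate 1 lowest, and the D425 groups overlapped. The log2 change of UNG was -0.81 ± 0.14 (adjusted p = 0.000577) in D458, held without any 1 library, and -0.11 ± 0.14 (adjusted p = 0.604) in D425. XRCC1, the scaffold of single-strand break repair, had 69.5, 70.9 and 80.5 CPM with hairpin 7 and 68.5, 71.5 and 79 CPM with hairpin 8, against 49.4, 59.9 and 61.6 CPM in control cells in D458. In D425 XRCC1 had 53.2, 59.3 and 64.1 CPM with hairpin 6 and 54.1, 57.7 and 65.4 CPM with hairpin 8, against 54.05, 63.8 and 61.1 CPM in control cells. Every D458 hairpin library lay above every control, and the D425 groups overlapped. XRCC1 rose in D458, 0.36 ± 0.09 (adjusted p = 0.00853), held without any 1 library, and had -0.02 ± 0.09 (adjusted p = 0.92) in D425. ERCC1, part of a nuclease of nucleotide excision repair, rose in D458 by 0.29 ± 0.09 (adjusted p = 0.0173; lost without control replicate 1, 0.0699). It shares 36.6% of its exon bases with CD3EAP on the opposite strand, which fell in D458 by 0.43 on the log2 scale, so its count is uncertain.

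APEX1, which cuts DNA at sites that have lost a base, was called in D425 and not in D458. Its D458 values were 350, 351 and 357 CPM with hairpin 7 and 359, 364 and 379 CPM with hairpin 8, against 372, 382 and 368 CPM in control cells. In D425 they were 321, 327 and 325 CPM with hairpin 6 and 297, 318 and 328 CPM with hairpin 8, against 374.5, 371 and 379 CPM in control cells. The D425 hairpin libraries all lay below their controls, whose 3 values were close together, and the D458 groups overlapped. APEX1 fell in D425 on average, -0.23 ± 0.05 (adjusted p = 0.00171), and with hairpin 8, -0.25 ± 0.05 (adjusted p = 0.00327), both held without any 1 library, and had -0.06 ± 0.05 (adjusted p = 0.37) in D458. PARP1, which senses strand breaks, had 990.5, 1075 and 1038 CPM with hairpin 7 and 946, 1059 and 1067 CPM with hairpin 8, against 1134, 1148 and 1128 CPM in control cells in D458 and 602.5, 635 and 554 CPM with hairpin 6 and 551, 633 and 536 CPM with hairpin 8, against 624, 628 and 613 CPM in control cells in D425. The D458 groups did not overlap and the D425 groups did. Its log2 changes were -0.14 ± 0.06 in D458 (adjusted p = 0.0885; 0.0194 with the replicate term) and -0.09 ± 0.06 in D425 (adjusted p = 0.333). OGG1, which removes oxidised guanine, passed in neither line (-0.16 in D458 and -0.10 in D425).

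The lines were compared directly for hairpin 8, the hairpin they shared. The log2 change in D458 minus that in D425 passed the test for 5 of the 47 genes, 4 lower and 1 higher, where 5.65% of all genes were called lower and 6.19% higher. In either direction this was 10.6% of the set, near the 11.8% of all genes. RAD51D differed by -1.22 ± 0.24 (adjusted p = 0.0041), from -0.97 in D458 and 0.26 in D425. RBBP8 differed by -0.64 ± 0.14 (adjusted p = 0.00766), from -0.48 in D458 and 0.16 in D425. LIG4 differed by 0.70 ± 0.17 (adjusted p = 0.0144), from 1.13 in D458 and 0.43 in D425, so it was higher with hairpin 8 in both lines and by more in D458. These 3 held without any 1 library. CHEK2 differed by -0.97 ± 0.25 (adjusted p = 0.0191), lost without D458 control replicate 3 (0.0547), and PRKDC by -0.77 ± 0.23 (adjusted p = 0.0426), lost in 10 of 12 omissions, all but those of D425 hairpin 8 replicate 3 and D425 control replicate 2 (up to 0.118). The count itself fell to 3 without D458 control replicate 3. With the replicate term 14 genes were called, 11 lower and 3 higher, where 13% and 13.5% of all genes were called. APEX1 (0.23 ± 0.08) and H2AFX (0.29 ± 0.18), called in D425 alone, did not pass this test (adjusted p = 0.0589 and 0.325).

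**Figure D3:**
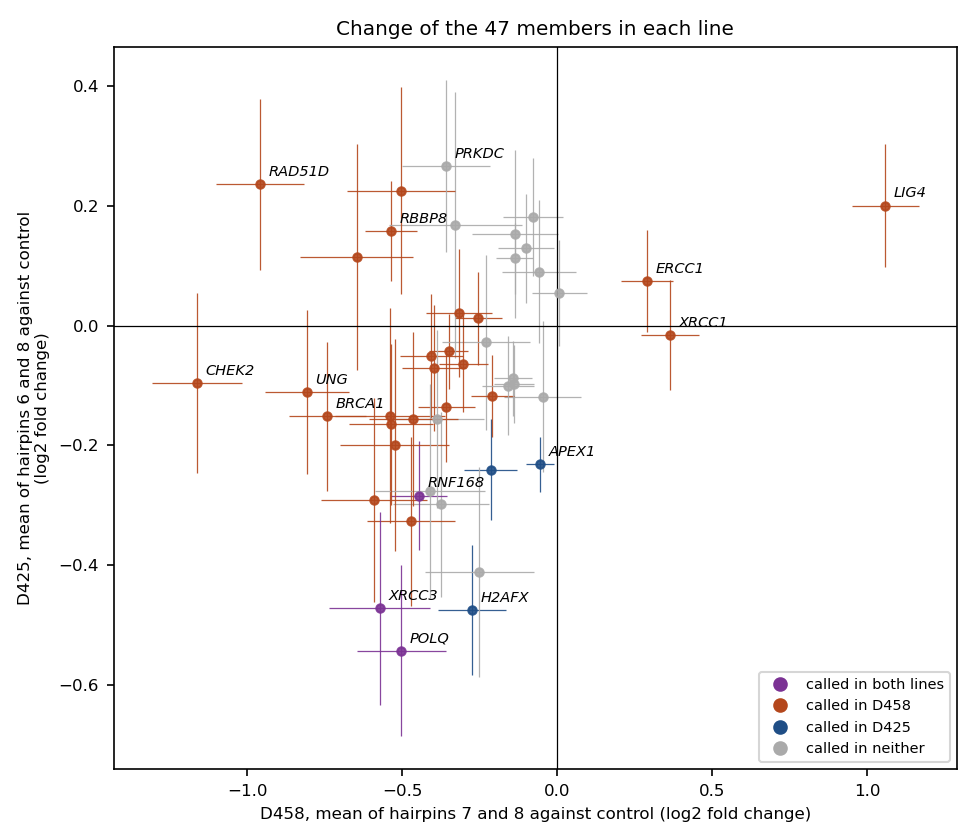
Log2 change of each of the 47 genes with both hairpins averaged against control, in D458 (horizontal axis) and D425 (vertical axis), coloured by where the gene was called. LIG4 lies far to the right at 1.06 in D458 and 0.20 in D425, CHEK2 and RAD51D lie far to the left, at -0.10 and 0.24 in D425, and H2AFX and APEX1 lie lower in D425 than in D458.

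Between the 2 hairpins of a line, edgeR called no difference in any of the 47 genes, and DESeq2 called 1. Between hairpin 8 and hairpin 7 in D458, edgeR called 0 genes of the set and 0% of all genes, 1 gene of the set had an unadjusted p under 0.05 (RAD51C, -0.29), and DESeq2 called 0 of the set and 0.0269% of all genes. Between hairpin 8 and hairpin 6 in D425, edgeR again called 0 genes of the set and 0% of all genes, 2 genes of the set had an unadjusted p under 0.05 (RAD51C, -0.48, and LIG4, 0.46), and DESeq2 called RAD51C lower (adjusted p = 0.0356), where it called 0.0404% of all genes. EYA2 RNA with hairpin 8 over hairpin 7 in D458 had a log2 change of -1.24, which did not pass in edgeR (adjusted p = 1) and passed with the replicate term (0.011), by DESeq2 (0.0144) and in a fit of D458 alone (0.0043). With hairpins 7 and 8 in D458, CHEK2 had log2 changes of -1.11 and -1.22, BRCA1 -0.73 and -0.75, and LIG4 0.99 and 1.13, against shared controls.

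Control cells of the lines differed in 27 of the 47 genes, 19 higher in D458 and 8 lower, where 31.4% of all genes were called in each direction. The median log2 difference, D458 over D425, was 0.19, beside 0.01 over all genes. PARP1 averaged 1137 ± 10.1 CPM in D458 controls and 622 ± 7.92 CPM in D425 controls, a log2 difference of 0.87 ± 0.07 (adjusted p = 2.7e-08). XRCC5 averaged 602 ± 47.2 CPM in D458 controls and 369.9 ± 24.8 CPM in D425 controls, 0.70 ± 0.08 (adjusted p = 5.17e-07). CHEK2 averaged 74.2 ± 12.8 CPM in D458 controls and 32 ± 3.2 CPM in D425 controls, 1.21 ± 0.17 (adjusted p = 1.4e-05). CHEK2 stood at 34.5 ± 6.37 and 31.9 ± 8.54 CPM in D458 hairpin cells, near the level of D425 controls. RAD50 averaged 145 ± 3.43 CPM in D458 controls and 99.1 ± 2.74 CPM in D425 controls, 0.55 ± 0.07 (adjusted p = 2.49e-06). EXO1 (1.17 ± 0.22), BRCA2 (1.10 ± 0.26) and BARD1 (0.90 ± 0.17) were also higher in D458. Lower in D458 were NBN, -0.50 ± 0.07 (adjusted p = 1.56e-05), H2AFX, -0.41 ± 0.13 (adjusted p = 0.00958), LIG4, -0.35 ± 0.12 (adjusted p = 0.0166), RBBP8, -0.35 ± 0.10 (adjusted p = 0.00493), OGG1, FANCD2, XRCC3 and BRCA1. H2AFX averaged 179.6 ± 8.83 CPM in D458 controls and 239 ± 10.1 CPM in D425 controls. The calls of 5 genes were lost without 1 control library, namely BRCA1 (D425 replicate 3 or D458 replicate 1, up to 0.091), FANCA (D425 replicate 2 or D458 replicate 2 or 3, up to 0.0625), FANCD2 (D425 replicate 2 or 3 or D458 replicate 1, up to 0.0912), XRCC3 (any but D458 replicate 3, up to 0.132) and DCLRE1C (any but D425 replicate 1, up to 0.232). Chromosome medians of this difference ran from -0.50 (chromosome 21) to 0.69 (chromosome X), and relative to their own chromosome's median RNF8, RBBP8 and BRCA1 had the opposite sign, near 0 for RNF8 and BRCA1.

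Other genes of the same pathways, from lists chosen with earlier results of these data known, were also called lower more often than higher in D458, where 16% of all genes were called lower and 15.7% higher. Of 17 further checkpoint genes 7 fell and none rose (median -0.20), led by TIPIN, a fork protection protein (-0.65 ± 0.13, adjusted p = 0.00213), the phosphatase CDC25A (-0.55 ± 0.13) and TOPBP1, the activator of ATR (-0.42 ± 0.10). Of 24 further break response and recombination genes 11 fell and 1 rose (median -0.34), with RMI1, a partner of BLM, at -0.44 ± 0.11. Of 10 further Fanconi genes 5 fell and none rose (median -0.26), with USP1, the enzyme that removes ubiquitin from FANCD2, at -0.60 ± 0.15. Among 20 further base excision and single-strand break genes 10 fell and 4 rose, with the flap nuclease FEN1 at -0.54 ± 0.11. Of 19 nucleotide excision genes 6 fell and 1 rose, the damage sensor XPC (0.64 ± 0.14), and of 11 translesion synthesis genes 3 fell and none rose, led by the ubiquitin ligase RAD18 (-0.54 ± 0.13).

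The same lists in D425 held 1 to 3 lower genes each (5% to 17.6% of a list) and no more than 2 higher (0% to 20%), where 11.5% of all genes were called lower and 12.1% higher. TOPBP1 fell there too (-0.43 ± 0.10, adjusted p = 0.00595), as did RMI1 (-0.61 ± 0.11, adjusted p = 0.000705) and ATRIP, the partner of ATR (-0.60 ± 0.14). MLH3, a mismatch repair gene, rose by 0.71 ± 0.09 on the log2 scale (adjusted p = 8.51e-05), ERCC6, a factor of transcription-coupled repair, by 0.67 ± 0.13, and the Fanconi subunits FANCF and FANCL by 0.48 ± 0.15 and 0.32 ± 0.10. With the replicate term the D425 counts became 6 higher and 2 lower of the 19 nucleotide excision genes, and 5 higher and 2 lower of the 11 translesion synthesis genes, where 20% of all genes were called higher and 18.5% lower.

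Genes linked to the H2AX tyrosine mark, not all of which act on it, were read as a list of 9. Of these 8 were tested and EYA4 was too low. In D458, EYA3 and the kinase BAZ1B fell, with log2 changes of -0.29 ± 0.10 and -0.22 ± 0.08 (adjusted p = 0.0365 and 0.0342), while APBB1, an adaptor reported to bind H2AX that carries the tyrosine phosphate, rose by 0.75 ± 0.17 (adjusted p = 0.00426). In D425, MAPK8, the JNK kinase, rose by 0.67 ± 0.09 (adjusted p = 8.51e-05) and MCPH1, a reader of phosphorylated H2AX, fell, -0.29 ± 0.09 (adjusted p = 0.0306). In D425 EYA3 and BAZ1B had -0.03 ± 0.10 and 0.00 ± 0.08. EYA1 in D458 stood at 42.1, 41.1 and 36.9 CPM with hairpin 7 and 39.4, 37.9 and 31.3 CPM with hairpin 8, against 29.45, 27 and 26.9 CPM in control cells. All 6 hairpin libraries lay above the 3 controls. The log2 change of EYA1 was 0.45 ± 0.17, which just missed the threshold (adjusted p = 0.0503) and passed with the replicate term (0.00114) and by DESeq2 (0.000301). In D425 libraries EYA1 stood at no more than 0.299 CPM.

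**Figure D4:**
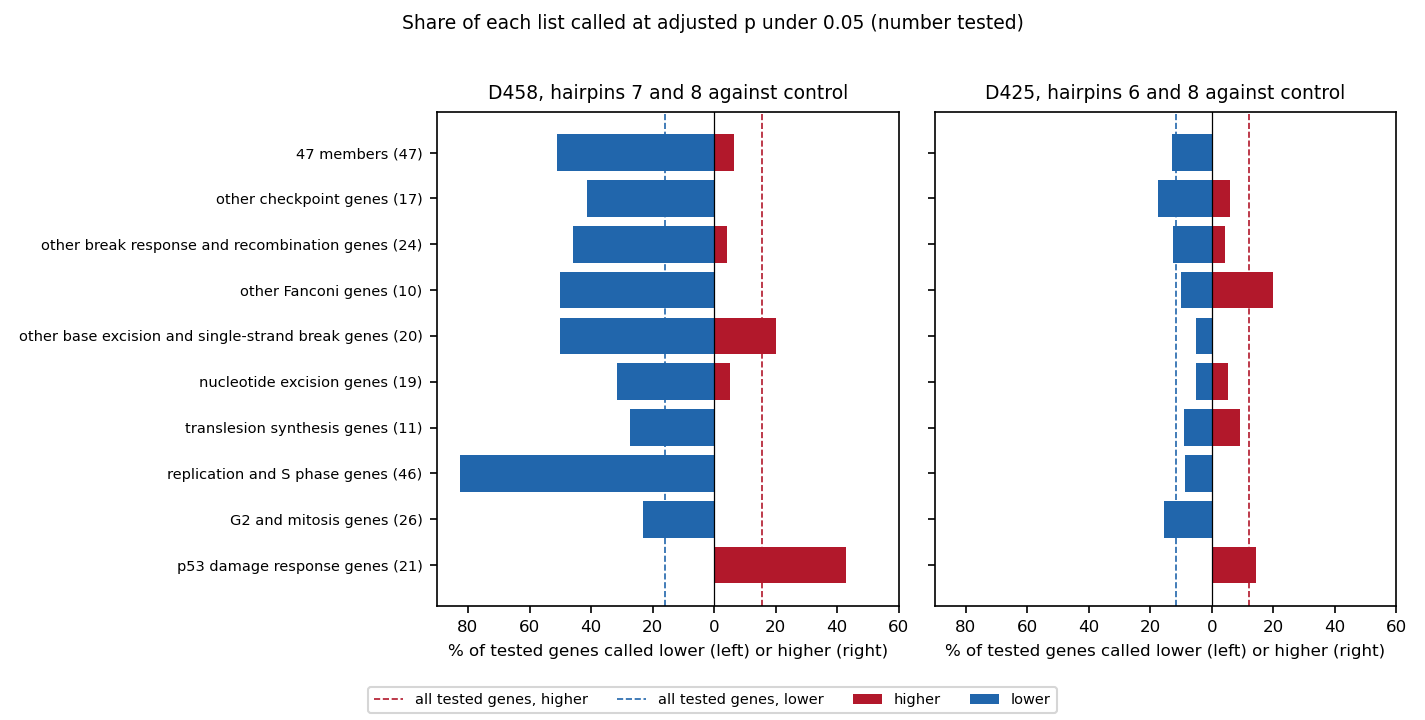
Percentage of the tested genes of each list called lower (blue, to the left) and higher (red, to the right) with both hairpins averaged, in D458 (left panel) and D425 (right panel), with the number tested in brackets and dashed lines at the percentage of all tested genes. In D458 the repair and checkpoint lists drawn and the S phase list exceed the 16% of all genes called lower, with the S phase list at 82.6%, while in D425 the bars drawn are at 20% or less.

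Cell cycle and p53 genes also changed, and their part in the changes of the set was not tested. Of all genes 16% were called lower and 15.7% higher in D458, and 11.5% and 12.1% in D425, and with the replicate term 23.8% and 22.8% in D458 and 18.5% and 20% in D425. Of 46 replication and S phase genes 38 fell in D458 and none rose (82.6% lower, median -0.48), with the helicase factor CDC45 at -0.76 ± 0.15 and GINS1 at -0.73 ± 0.14. In D425 4 of the 46 fell and none rose (8.7% lower, median -0.19), 15 with the replicate term. Of 26 G2 and mitosis genes 6 fell in D458 (median -0.42), 24 with the replicate term, and 4 fell in D425 (median -0.29), 17 with it. Of 21 p53 damage response genes 9 rose in D458 and none fell (median 0.69), among them GADD45A (0.85 ± 0.16) and TP53INP1 (1.80 ± 0.40), and with the replicate term 20 rose and 1 fell. In D425 3 of the 21 rose (median 0.28), among them BTG2 (0.96 ± 0.23) and CDKN1A (3.05 ± 0.89). With the replicate term 10 rose and 1 fell. Without that term the D425 counts of these lists were near the shares of all genes. Relative to the control mean, the p53 median in D425 was -0.20, 0.63 and 0.50 in hairpin 6 libraries. It was -0.13, 0.67 and 0.33 with hairpin 8, against -0.46, 0.33 and 0.09 in controls, so the groups overlapped. XPC stands in both the p53 and the nucleotide excision list.

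The size of the D458 shift differed between replicates, and replicate 1 of every group carried an earlier date in its label than replicates 2 and 3, which shared a later one. The median of the 47 genes relative to the control mean was -0.55, -0.22 and -0.28 in the hairpin 7 libraries and -0.66, -0.19 and -0.24 in the hairpin 8 libraries, against 0.01, -0.03 and 0.02 in the controls. The S phase list had -0.77, -0.35 and -0.34 with hairpin 7 and -1.02, -0.28 and -0.28 with hairpin 8. Set against the control of the same date, the averaged median was -0.54 in replicate 1 and -0.26 in replicates 2 and 3, and 42 of the 47 genes lay below 0 on both dates. With the later date alone, CHEK2 had -1.13 (adjusted p = 4.39e-06), RAD51D -0.76 (0.00391), BRCA1 -0.60 (0.000346), UNG -0.56 (0.00115), RBBP8 -0.38 (0.00378) and LIG4 1.03 (2.97e-05), beside -1.24, -1.38, -1.09, -1.36, -0.86 and 1.11 in replicate 1. The falls of RAD51D, BRCA1, UNG and RBBP8 were thus larger in replicate 1, and CHEK2 and LIG4 were close on both dates. In D425 the medians were -0.11 in replicate 1 and -0.09 in replicates 2 and 3, and H2AFX had -0.48 in replicate 1 and -0.47 (adjusted p = 0.000901) in replicates 2 and 3.

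**Figure D5:**
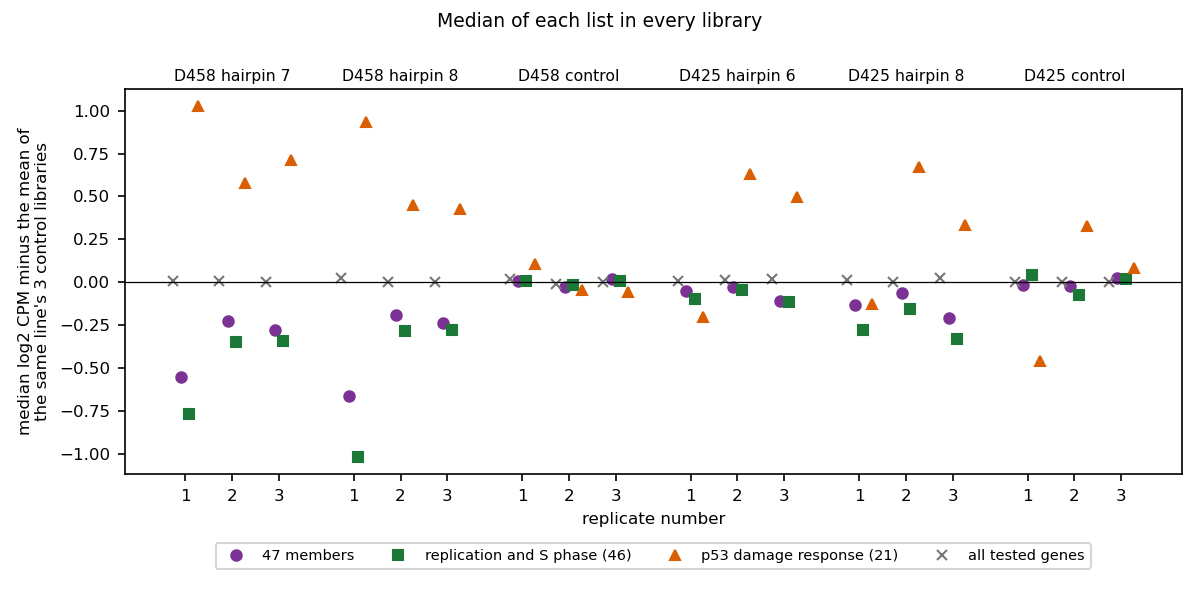
Median over each gene list of log2 CPM minus the mean of the same line's 3 controls, 1 point per library, for the 47 repair and checkpoint genes, the S phase and p53 lists, and all tested genes. In D458 the hairpin libraries lie below the controls for the 47 genes and the S phase list, with replicate 1 lowest at -0.55 and -0.66 for the 47 genes, and above them for the p53 list, while the median of all genes lies near 0.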

How the data were processed

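Polyadenylated RNA of D458 and D425 cells was measured in 18 libraries, 6 groups of 3 biological replicates, grouped by the line and hairpin in the labels. The deposited values are whole-number read counts per gene symbol, not normalized. The submitters' processing notes name the aligner TopHat2 with Bowtie2, the counter HTSeq, the tools SAMtools, Picard, FastQC and bcl2fastq, and the builds GRCh37 and hg19. Their versions, and how HTSeq was set for strand and for reads with several matches, were not given in the sources used here. Overlapping genes and near-identical copies (CHEK2, PMS2, BRCA1, FANCD2, XRCC6) are therefore uncertain. Overlaps were read from GENCODE 29.

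Counts were analysed with edgeR 4.0.16 on limma 3.58.1 in R 4.3.3, and with DESeq2 1.42.0 as an alternative. filterByExpr (minimum count 10) kept 14850 genes and removed 10519. A quasi-likelihood model with robust estimation, TMM scaling and 1 coefficient per group was fitted to all 18 libraries (common biological coefficient of variation 0.153, with 12 residual degrees of freedom), for 10 contrasts, with Benjamini-Hochberg adjustment over all genes and a threshold of 0.05. The procedure was run on simulated counts without a shared replicate effect, so that run does not cover the replicate structure of these data. No replicate pair was a duplicate. Precision is limited by 3 libraries per group. The p-values set each change against a spread between replicates that was estimated from all 18 libraries of both lines.

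Labels give the same replicate number a shared run label in all groups. After removal of group means, same-numbered libraries correlated at 0.09 to 0.60 in D458 (mean 0.27) and 0.07 to 0.55 in D425 (mean 0.26), and others at means of -0.13 and -0.13. With group means removed, libraries of different numbers are bound to correlate negatively where same-numbered ones correlate positively, so their means are no separate evidence. The number was added as a block within line as an alternative fit.

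The 47 genes and the other lists were chosen with earlier results of these data known. Values in every library are given for H2AFX, the 12 genes with the smallest adjusted p in a hairpin contrast, those whose hairpin 8 effect differed between lines, and the 4 with the smallest adjusted p between controls, 17 in all, and from other lists up to 4 called genes with the smallest adjusted p in each line are named, with EYA1 to EYA4 and BAZ1B always. PAXX and TIGAR, on these lists, were not matched in the table. Some further genes that this rule takes in are not reported here.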

Additional observations from a re-analysis of the deposited data

Results flagged for a closer look

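Between the lines, hairpin 8 effects differed in 10.6% of the 47 genes, near the 11.8% of all genes called. The log2 change with hairpin 8 in D458 minus that in D425 passed the test for 5 genes. It was -1.22 for RAD51D, with -0.97 in D458 and 0.26 in D425. It was -0.64 for RBBP8, with -0.48 in D458 and 0.16 in D425. It was 0.70 for LIG4, a larger rise in D458. For CHEK2 it was -0.97, with -1.22 in D458 and -0.25 in D425, and for PRKDC -0.77, with -0.36 in D458 and 0.41 in D425, where neither single change passed. In control cells CHEK2 was higher in D458 by 1.21, and LIG4 and RBBP8 lower, at -0.35 and -0.35 on the log2 scale, while RAD51D (0.13) and PRKDC (0.24) did not pass.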

How the results depend on the processing

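Counts of the set's genes called at adjusted p under 0.05 depended most on the replicate number and on how many libraries were used. In brackets after a count is the share of all genes called in the same fit. With the replicate block within line the counts were 31 (40%) for D458 hairpin 7, 35 (39.6%) for D458 hairpin 8, 9 (27.8%) for D425 hairpin 6, 14 (37.2%) for D425 hairpin 8, 11 (38.5%) for the D425 average and 14 (26.5%) for the hairpin 8 effect between lines, against 19 (22.6%), 20 (23.2%), 3 (14.1%), 5 (21.7%), 6 (23.6%) and 5 (11.8%) without it. The 129 single-gene results are the genes of the set called without the block, with H2AFX and EYA2 in every contrast. Few of them could therefore be brought past the threshold. Among them the block left 122 on their side of it, brought 7 past it and ended no call. Without replicate 1 in every group the counts were 10 (15.1%) for D458 hairpin 8, 9 (23.3%) for D425 hairpin 6, 11 (28.1%) for D425 hairpin 8 and 11 (31.4%) for the D425 average. Without replicate 2 they were 5 (4.56%) and 6 (5.43%) for D458 hairpins 7 and 8, 14 (13.8%) for the D458 average, 0 (0.77%), 1 (5.83%) and 2 (7.33%) for D425 hairpin 6, hairpin 8 and average, and 0 (0.498%) between lines, and without replicate 3 they were 6 (4.43%), 6 (6.13%), 11 (12.5%), 0 (0.902%), 0 (3.43%), 0 (4.87%) and 0 (0.681%). These fits have 2 libraries per group. Leaving out 1 library gave 9 to 17 (8.49% to 19.2%) for D458 hairpin 7, 8 to 21 (9.65% to 21.8%) for D458 hairpin 8, 15 to 29 (19% to 31.2%) for the D458 average, 0 to 4 (6.11% to 17.1%) for D425 hairpin 6, 2 to 6 (10.5% to 22.7%) for D425 hairpin 8, 2 to 5 (11.5% to 24.4%) for the D425 average, 3 to 7 (6.24% to 15.3%) between lines, 23 to 27 (56.5% to 59.2%) between controls and 0 between hairpins (no more than 0.105%). Fits of 1 line alone gave 12 (19.8%) and 11 (19.9%) for D458 hairpins 7 and 8 and 9 (22.6%) for D425 hairpin 8, the lack of a low-count filter gave 13 (13%) for D458 hairpin 8, and DESeq2 gave 5 (17.1%) for D425 hairpin 6 and 1 (0.0404%) between hairpins 8 and 6 in D425. The cause of these moves was not tested. Other scaling (RLE) moved no count by over 1.5 times and ended 6 calls among the 129 single-gene results. H2AFX between hairpins 8 and 7 in D458 was -0.02 on the log2 scale, between -0.1124 and 0.134 without 1 library, of which 0.0248, 0.0247 and 0.134 belonged to hairpin 7 replicate 2, hairpin 7 replicate 3 and hairpin 8 replicate 1, and 0.0476 without replicate 1 in every group. Relative to their chromosome's median, the control difference was -0.0117 for RNF8, 0.1078 for RBBP8 and 0.0228 for BRCA1. Of the 129 single-gene results 33 others moved by more than 1 standard error on this scale with their direction kept, and 93 moved by less. Between-line comparisons already use every library, so no fit on fewer lines exists for them. All 47 genes had 91 or more counts in every library, and counting error was not separated from the spread between replicates.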
